A study of Homo sapiens with 6 samples.

Results

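The genes described here are 9 human genes of homologous recombination and the Fanconi pathway, namely BRCA1, BRCA2, BARD1, FANCD2, FANCI, EXO1, BLM, BRIP1 and RAD51AP1. They were taken by name from a list of DNA repair genes, and all 9 were present among the 34957 genes of both deposited transcript tables, where they were represented by 121 transcripts. Short-read RNA sequencing was carried out in A549 cells, a human lung adenocarcinoma cell line, 48 h after transfection with a control siRNA (si-ctrl) or with either of 2 siRNAs against the long noncoding RNA PLANE (si-PLANE.1 and si-PLANE.2). Each group held 2 libraries. The labels number the si-PLANE.2 libraries 3 and 4 and those of the other groups 1 and 2, and the study described them as experimental repeats of 1 cell line, so that p-values measure the spread between these libraries. All groups had been transfected, no untransfected group was used here, and both siRNAs were compared with the same si-ctrl libraries. The level of PLANE itself was not analysed here.

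Homologous recombination repairs broken DNA by copying an intact sister chromatid. The broken ends are first trimmed to single strands by nucleases and helicases such as EXO1 and BLM, after which BRCA2 prepares them for invasion of the intact copy, aided by BRCA1 with its partner BARD1 and by RAD51AP1. The Fanconi pathway unhooks crosslinks between DNA strands and feeds the resulting break into the same route, and its central step is the ubiquitination of the FANCD2 and FANCI pair. Many of these genes are transcribed mainly as cells enter and pass S phase, and their loss sensitises cells to crosslinking agents.

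The libraries held 10572151 to 20778431 expected counts, which are estimated read numbers per transcript, and those of si-PLANE.2 were the deepest. The FPKM of a gene, in fragments per kilobase of transcript and per 1e+06 mapped fragments, was the sum over its transcripts. The 10 A549 epithelial markers summed to between 11359 and 25833 FPKM in the 6 libraries, and CDKN2A and CDKN2B, which A549 has lost, summed to at most 0.48 FPKM. Among the other cell types, 3 of 10 leukocyte markers were listed at 0 throughout, CD2, CD3D and CD3E, and the list summed to 24.6 to 71.8 FPKM, most of it CD68. The 9 fibroblast and endothelial markers found summed to 3.88 to 20.9 FPKM. The si-PLANE.2 libraries stood apart. Transcripts of replication-dependent histone genes, which end without a poly(A) tail, summed to 2546 and 3134 FPKM in si-ctrl over the 15 found of 42 listed, to 1640 and 2068 FPKM after si-PLANE.1, and to 9.02 and 9.88 FPKM after si-PLANE.2. The siRNA and any difference in how these libraries were made cannot be told apart, and every si-PLANE.2 value below carries this limit. In addition, fewer cells with a transcript and less of it per cell cannot be told apart in bulk RNA.

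In si-ctrl cells, the 9 genes lay within 1 order of magnitude of each other in FPKM. FANCI was the highest at 39.9 ± 8.73 FPKM (SD, n = 2), followed by BRCA1 at 28.3 ± 3.94, and the ranges of these 2 genes overlapped neither each other nor any other. FANCD2, EXO1, RAD51AP1 and BLM followed with means of 15.3, 12.9, 12.6 and 12.2 FPKM. Each gene of these 4 overlapped its neighbour in the order, so that the order among them is not resolved. BRIP1, BRCA2 and BARD1 formed the lowest set, with means of 7.12, 6.76 and 5.81 FPKM. The range of BRIP1 overlapped those of BRCA2 and BARD1, which did not overlap each other. This order is one of summed FPKM, in which short transcripts with few reads weigh heavily. By expected counts, which are not scaled by length, RAD51AP1 was the lowest at 135 and 120, while BARD1 had 336 and 314. The coding ENST00000352618 of RAD51AP1 had 1.86 and 1.26 FPKM, and the coding ENST00000260947 of BARD1 had 4.22 and 3.71.

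**Figure D1:**
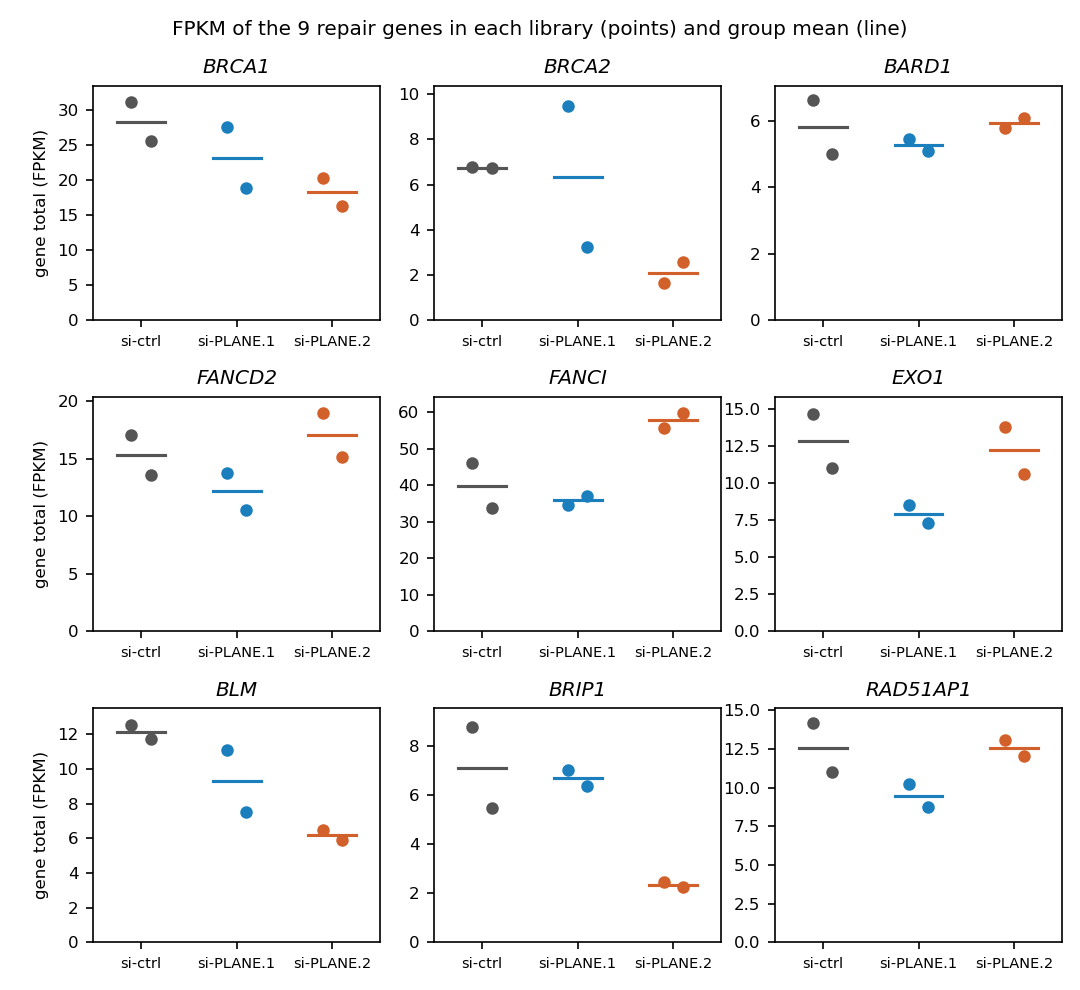
FPKM of each of the 9 genes (vertical axes, linear from 0, each panel with its own scale) in the si-ctrl, si-PLANE.1 and si-PLANE.2 libraries (points, 2 per group), with the group mean as a line. EXO1, BLM and RAD51AP1 were lower in both si-PLANE.1 libraries than in both si-ctrl libraries, and after si-PLANE.2 BRCA1, BRCA2, BLM and BRIP1 were lower and FANCI was higher in both libraries than in both si-ctrl libraries.

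BRCA1 (ENSG00000012048, chr17:41196312-41322262 of GRCh37, minus strand) encodes a ubiquitin ligase subunit that promotes end trimming and recruits BRCA2. Its FPKM was 31.1 and 25.5 in si-ctrl, 27.5 and 18.8 after si-PLANE.1, and 20.3 and 16.3 after si-PLANE.2. Both si-PLANE.2 libraries were thus below the control range, while the si-PLANE.1 range overlapped it. BARD1 (ENSG00000138376, chr2:215590370-215674407, minus strand), the obligate partner of BRCA1, gave 6.62 and 4.99 FPKM in si-ctrl, 5.45 and 5.08 after si-PLANE.1, and 5.78 and 6.07 after si-PLANE.2. Each knockdown range overlapped that of the controls.

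BRCA2 (ENSG00000139618, chr13:32889223-32974405, plus strand) prepares single-stranded DNA for strand invasion. Its FPKM was 6.78 and 6.74 in si-ctrl, 9.48 and 3.23 after si-PLANE.1, and 1.64 and 2.57 after si-PLANE.2. The si-PLANE.1 libraries lay on either side of the controls, and both si-PLANE.2 libraries lay far below them. In si-PLANE.1 replicate 1, 4.8 of the 9.48 FPKM came from 14.4 expected counts on ENST00000533776. This transcript of 523 bases is annotated as a retained intron. It had 1.83 and 2.55 FPKM in si-ctrl and 0 in si-PLANE.1 replicate 2. The split in si-PLANE.1 was smaller by read number, where scaling to counts per 1e+06 reads with TMM factors (TMM CPM) gave 53.1 and 46.8 in si-ctrl, 43.9 and 33.7 after si-PLANE.1, and 9.93 and 9.56 after si-PLANE.2. BRIP1 (ENSG00000136492, chr17:59756500-59940920, minus strand), a helicase that binds BRCA1 and is also a Fanconi protein, gave 8.77 and 5.47 FPKM in si-ctrl, 7.03 and 6.37 after si-PLANE.1, and 2.46 and 2.25 after si-PLANE.2. Both si-PLANE.2 libraries were again below both controls.

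FANCD2 (ENSG00000144554, chr3:10068054-10143616, plus strand) and FANCI (ENSG00000140525, chr15:89787176-89860492, plus strand) form the clamp that is ubiquitinated at stalled forks. FANCD2 gave 17.1 and 13.6 FPKM in si-ctrl, 13.8 and 10.5 after si-PLANE.1, and 18.96 and 15.12 after si-PLANE.2, and both knockdown ranges overlapped the control range. FANCI gave 46.1 and 33.7 FPKM in si-ctrl, 34.7 and 37.1 after si-PLANE.1, and 55.7 and 59.8 after si-PLANE.2. The si-PLANE.2 libraries of FANCI were both above the control range.

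EXO1 (ENSG00000174371, chr1:242011269-242058450, plus strand) is the exonuclease of long-range end trimming and also acts in mismatch repair. It gave 14.7 and 11.1 FPKM in si-ctrl, 8.52 and 7.32 after si-PLANE.1, and 13.8 and 10.7 after si-PLANE.2. Both si-PLANE.1 libraries were below the control range, which the si-PLANE.2 range overlapped. BLM (ENSG00000197299, chr15:91260577-91359396, plus strand), the helicase mutated in Bloom syndrome, gave 12.6 and 11.8 FPKM in si-ctrl, 11.1 and 7.51 after si-PLANE.1, and 6.48 and 5.91 after si-PLANE.2. BLM was the only one of the 9 genes to lie below both controls in all 4 knockdown libraries in FPKM. In TMM CPM the same also held for BRCA1, BRCA2, FANCD2 and EXO1. RAD51AP1 (ENSG00000111247, chr12:4647964-4669213, plus strand), which binds DNA and stimulates strand invasion, gave 14.14 and 10.99 FPKM in si-ctrl, 10.3 and 8.71 after si-PLANE.1, and 13.0 and 12.1 after si-PLANE.2. Its si-PLANE.1 libraries were both below the controls and its si-PLANE.2 libraries fell between them.

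The question for each siRNA was whether these genes differed from si-ctrl beyond the spread between libraries, and summed counts of each gene were tested with edgeR's quasi-likelihood test (TMM, Benjamini-Hochberg adjustment over all genes tested, called at an adjusted p under 0.05). After si-PLANE.1, 0 of the 9 genes were called by edgeR, and likewise 0 by DESeq2 or by limma on FPKM, in a comparison in which 0.0344% of 14535 genes tested were called. At an unadjusted p under 0.05, 4 of 9 passed (EXO1, BLM, FANCI and FANCD2), against 10.4% of all genes. All 9 fold changes were nevertheless below 0, from -0.74 to -0.15, with a median of -0.33 on the log2 scale, while 49.7% of all genes tested were below 0 and their median was 0.00. In TMM CPM, both si-PLANE.1 libraries were below both si-ctrl libraries for 7 of the 9 genes, and BARD1 and BRIP1 overlapped. The same held for 21.6% of all genes.

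EXO1 carried the lowest value after si-PLANE.1, with a log2 fold change of -0.74 ± 0.153 (SE, adjusted p = 0.278 by edgeR). Its TMM CPM was 41.5 and 35.2 in si-ctrl against 24.0 and 22.1 after si-PLANE.1. BLM gave -0.55 ± 0.139 (adjusted p = 0.326). With the replicate number as a block, EXO1 and BLM were called (adjusted p = 3.4e-05 and 0.0045), although the numbers are not stated to pair the libraries. The block fit called 1225 of all 14535 genes tested, against 5 without the block. RAD51AP1 gave -0.44, BRCA2 -0.37, BRIP1, FANCI and FANCD2 -0.33 each, BRCA1 -0.22 and BARD1 -0.15, none of them called. The BRIP1 value turned to 0.02 without the first si-ctrl library, and to 0.02 when TPM values were tested. Among the lists outside DNA repair, these were also mostly below 0 in this comparison: 10 of 10 proliferation genes with a median of -0.53, 9 of 10 A549 epithelial markers with a median of -0.40 and 13 of 15 housekeeping genes with a median of -0.21. edgeR called 0 of these genes, and their part in the result was not tested.

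After si-PLANE.2, 6 of the 9 genes were called, 2 higher and 4 lower. Of all 14168 genes tested, 64.1% were called, 31.8% higher and 32.3% lower, so that the share among the repair genes, 66.7%, was close to that of all genes. In TMM CPM the si-PLANE.2 libraries did not overlap si-ctrl for any of the 9 genes, which also held for 82.8% of all genes. BRCA2 fell by 2.37 ± 0.130 on the log2 scale (SE, edgeR adjusted p = 1.1e-05), to a fold of 0.194 of the control. Without each library in turn its value ran from -2.45 to -2.29. The most abundant BRCA2 transcript alone was not called (-2.27, edgeR adjusted p = 0.44). Its reads changed place with those of the other full-length transcript between libraries, as described below, so this setting cannot decide on BRCA2. BRIP1 fell by 0.97 ± 0.205 (adjusted p = 0.0044), BLM by 0.56 ± 0.136 (adjusted p = 0.0085) and BRCA1 by 0.52 ± 0.0990 (adjusted p = 0.0027). Read by the most abundant transcript alone, BRIP1 (-0.44, adjusted p = 0.138) and BRCA1 (-0.33, adjusted p = 0.143) were not called either. BLM was no longer called without si-PLANE.2 replicate 4 (adjusted p = 0.108).

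RAD51AP1 and FANCI were the genes called higher. RAD51AP1 gave 0.87 ± 0.167 (edgeR adjusted p = 0.0027), from 9.85 and 8.63 TMM CPM in si-ctrl to 18.2 and 15.8 after si-PLANE.2. This call rests on read numbers, and with FPKM the value was 0.01 (limma adjusted p = 0.97) and with TPM -0.14. The most abundant RAD51AP1 transcript by FPKM, ENST00000536346 of 707 bases, gave 0.19 (edgeR adjusted p = 0.81). It held 15.5% of the gene's counts, against 48.8% on the coding ENST00000352618. The share of RAD51AP1 reads on this long coding transcript is described below. FANCI gave 0.42 ± 0.0943 (adjusted p = 0.0060), and it was not called when either si-PLANE.2 library was left out (adjusted p = 0.067 and 0.057) or with TPM (0.38, adjusted p = 0.151). BARD1 (-0.34, adjusted p = 0.057), FANCD2 (-0.26, adjusted p = 0.057) and EXO1 (-0.26, adjusted p = 0.106) were not called. Without si-ctrl replicate 2 they gave -0.40, -0.32 and -0.37. BARD1 and FANCD2 were called lower with 75th-percentile scaling (edgeR adjusted p = 0.048 and 0.043) and with a minimum of 2 FPKM (0.033 and 0.027). EXO1 was called with neither. With FPKM, BARD1 gave 0.04 and FANCD2 0.15. The median of all genes shifted by -0.22 with FPKM and -0.37 with TPM in this comparison, against -0.03 with TMM, and 37.1% and 28.6% of all genes called were then higher, against 49.7%.

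Across the 9 genes, the log2 fold change after si-PLANE.2 ran with the length of the longest deposited transcript, from 10984 bases for BRCA2 to 2235 bases for RAD51AP1 (Spearman rho = -0.72 over 9 genes). Over all 14168 genes tested rho was -0.32. After si-PLANE.1 rho was 0.57 over the 9 genes and 0.08 over 14535 genes. The points share the same libraries and genes are not independent replicates, so these values are descriptions only.

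**Figure D2:**
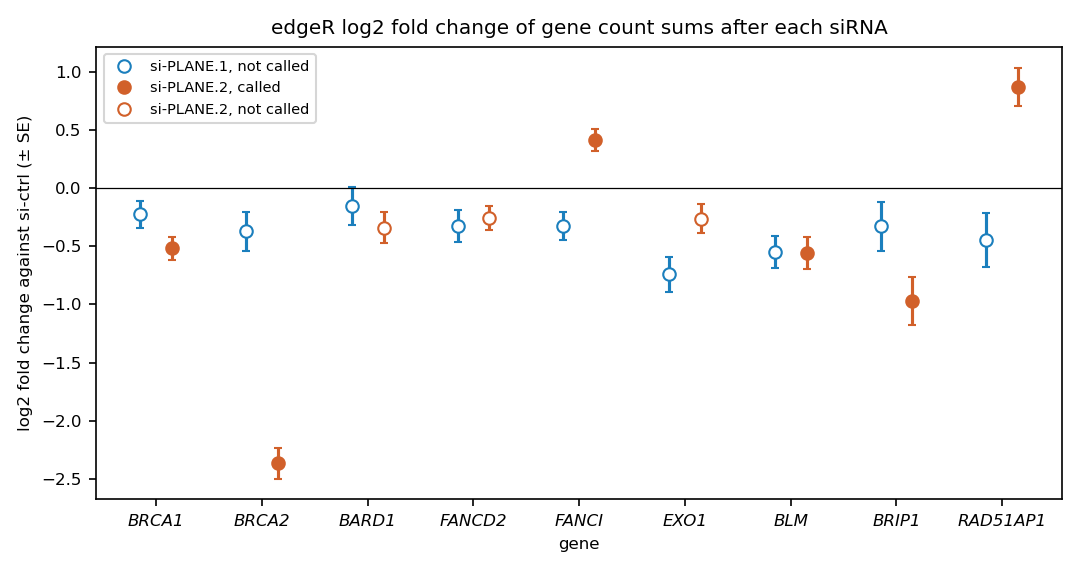
edgeR log2 fold change (vertical axis, ± SE) of each of the 9 genes (horizontal axis) after si-PLANE.1 and si-PLANE.2 against the same si-ctrl libraries, with filled points for genes called at an adjusted p under 0.05 and open points for the rest. The si-PLANE.1 points all lie between -0.74 and -0.15 and are open, whereas the si-PLANE.2 points run from -2.37 for BRCA2 to 0.87 for RAD51AP1.

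The siRNAs were then compared with each other in a fit of all 6 libraries, which asked whether their effects on a gene differed. Of the 9 genes, 6 were called, 3 higher and 3 lower after si-PLANE.2, where 64.4% of 14440 genes were called. BRCA2 differed by -1.99 ± 0.165 (SE, edgeR adjusted p = 1.6e-05), BRIP1 by -0.64 ± 0.199 (adjusted p = 0.020) and BRCA1 by -0.29 ± 0.0963 (adjusted p = 0.028). RAD51AP1 differed by 1.32 ± 0.200 (adjusted p = 0.00048), FANCI by 0.75 ± 0.101 (adjusted p = 0.00025) and EXO1 by 0.49 ± 0.140 (adjusted p = 0.014). In the BRCA1 and BRIP1 contrasts the call was lost when any one knockdown library was left out, and in that of EXO1 without si-PLANE.1 replicate 2 or si-PLANE.2 replicate 3. With limma on log2(TPM + 1), the differences of RAD51AP1 (0.16, adjusted p = 0.52), FANCI (0.44, adjusted p = 0.086), EXO1 (0.36, adjusted p = 0.22) and BRCA1 (-0.54, adjusted p = 0.096) were not called, and with limma on log2(FPKM + 1) those of RAD51AP1 (0.37, adjusted p = 0.0995), BRCA1 (-0.31, adjusted p = 0.25) and BRCA2 (-1.12, adjusted p = 0.052) were not. BRCA1 was also not called by DESeq2 (-0.27, adjusted p = 0.056) or with no minimum FPKM (-0.27, adjusted p = 0.071). BLM differed by -0.00 ± 0.143 by counts, but by -0.73 with TPM, which was called (limma adjusted p = 0.029). BARD1 differed by -0.18 ± 0.152 and FANCD2 by 0.07 ± 0.107, neither of them called.

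The 9 genes held 23 main isoforms, defined as transcripts with at least 10% of the mean FPKM of their gene. Of these, 22 had an entry in the GENCODE v44 annotation of GRCh37, 15 as protein coding and 4 as targets of nonsense-mediated decay, the pathway that degrades messages with an early stop codon. After si-PLANE.1, 0 of 22 isoforms tested were called by edgeR, DESeq2 or limma on FPKM, edgeR called 0% of all 57625 transcripts, and 3 of 22 passed an unadjusted p under 0.05, against 4.43% of all. After si-PLANE.2, 5 of 22 were called, 3 higher and 2 lower, against 25.6% of 56791 transcripts. Without si-PLANE.2 replicate 3 or 4, edgeR called 0 of all 57622 and 57194 transcripts, so that the loss of these 5 calls in those fits says nothing particular about the isoforms. Without si-ctrl replicate 2, 2 of the 5 remained called. Expected counts divide reads among overlapping transcripts by estimation, so the split within a gene is less certain than its total.

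In RAD51AP1 the coding isoform was called higher after si-PLANE.2. The main isoforms differ at the end of exon 3 (chr12:4652929-4653070 in the coding form), and the 15 bases on either side of that junction are shown because they tell the 3 isoforms apart. Capitals mark the bases that follow the junction in the coding form and in the form that skips exon 4, and the 7 bases by which exon 3 is longer in the remaining form.
ENST00000352618, protein coding: aacccctaaaaaaagGATGGCTTTAGATGA
ENST00000536886, exon 4 skipped: aacccctaaaaaaagGCATTGAAAAACATG
ENST00000536346, exon 3 longer: aaaaaaagGTGAGAGgatggctttagatga
The skipped exon (chr12:4655475-4655584) is 110 bases long and exon 3 of ENST00000536346 ends at position 4653077, and neither 110 nor 7 is a multiple of 3. Both of these forms are annotated as targets of nonsense-mediated decay.

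The coding ENST00000352618 had 47.4 and 33.5 expected counts in si-ctrl, 36.4 and 8.57 after si-PLANE.1, and 212 and 145 after si-PLANE.2. Its share of the RAD51AP1 counts was 35.1% and 27.9% in si-ctrl and 64.7% and 57.6% after si-PLANE.2. It rose by 1.93 ± 0.386 on the log2 scale (SE, edgeR adjusted p = 0.035), a call lost without si-ctrl replicate 2 (adjusted p = 0.071) and with all libraries in one fit (0.087). ENST00000536886 went from 24.9 and 40.2 expected counts to 13.8 and 6.01, with a value of -1.92 that was not called (adjusted p = 0.112). ENST00000536346 stood at 39.4 and 12.8 in si-ctrl and at 40.5 and 33.8 after si-PLANE.2. These decay-annotated forms measure 841 and 707 bases in the deposited tables against 2113 for the coding form, and FPKM divides reads by these lengths.

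In BARD1 the decay-annotated isoform held a larger share after si-PLANE.2. The share itself was not tested, and the abundance of this isoform was not called. Its coding ENST00000260947 joins exon 2 (chr2:215661785-215661841) to an exon of 149 bases (chr2:215657021-215657169) that the decay-annotated ENST00000455743 skips, and the junctions are shown 5′ to 3′ with the bases of the following exon in capitals.
ENST00000260947, protein coding: gcacatcttctgtagTAATTGTGTAAGTGA
ENST00000455743, exon 3 skipped: gcacatcttctgtagATTTGAAAGAAGATA
The skipping form took 6.31% and 11.7% of the BARD1 counts in si-ctrl, 9.66% and 2.81% after si-PLANE.1, and 29.5% and 23.0% after si-PLANE.2. Its log2 fold change after si-PLANE.2 was 1.31 ± 0.484 (edgeR adjusted p = 0.119), and that of the coding form was -0.61 ± 0.208 (adjusted p = 0.101). In the fit of the most abundant transcript of each gene, the coding form gave -0.71 and was called (edgeR adjusted p = 0.0305).

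FANCD2 and BLM each had a main isoform that was listed at 0 in the si-PLANE.2 libraries. ENST00000421731 of FANCD2, annotated as a target of nonsense-mediated decay, had 140 and 114 expected counts in si-ctrl, 121 and 56.9 after si-PLANE.1, and was listed at 0 in both si-PLANE.2 libraries. Against a floor of 3 counts per library, scaled with TMM factors of the transcript table, it was at least 47.5-fold lower (edgeR adjusted p = 0.012). The short ENST00000470028 of the same gene, without a defined coding sequence, was at 0 in both si-ctrl libraries and at 41.5 and 29.0 expected counts after si-PLANE.2, at least 10.4-fold higher (adjusted p = 0.028). The main FANCD2 transcript, ENST00000383807, has no entry in the annotation. It took 63.0% and 30.5% of the gene's counts in si-ctrl and 90.8% and 84.0% after si-PLANE.2. It was not called (0.72 ± 0.428, edgeR adjusted p = 0.267). The coding ENST00000419585, of similar length, took 4.55% and 36.9% in si-ctrl and 0% and 6.85% after si-PLANE.2. The split of reads between these transcripts thus differed between the si-ctrl libraries, and their single shares are uncertain. ENST00000559426 of BLM had 14.61 and 11.01 expected counts in si-ctrl, 16.3 and 0 after si-PLANE.1 and 0 in both si-PLANE.2 libraries, at least 4.80-fold lower (adjusted p = 0.047). This call was lost with DESeq2 (adjusted p = 0.067), with no minimum FPKM (0.082), with all libraries in one fit (0.129), and without si-ctrl replicate 1 (0.136) or 2 (0.118). The full-length BLM transcript ENST00000355112 gave -0.60 ± 0.215 (adjusted p = 0.114). In the fit of the most abundant transcript of each gene it gave -0.70 and was called (edgeR adjusted p = 0.0295).

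The full-length coding transcript of FANCI was called higher after si-PLANE.2. ENST00000310775 had 1291 and 1176 expected counts in si-ctrl, 780 and 769 after si-PLANE.1, and 2528 and 2045 after si-PLANE.2, a log2 fold change of 0.67 ± 0.126 after si-PLANE.2 (edgeR adjusted p = 0.030). With limma on FPKM it gave 0.38 and was not called (adjusted p = 0.099), nor was it called by edgeR without si-ctrl replicate 2 (0.057). In BRIP1 no isoform was called. The shorter coding ENST00000577598 had 177 and 85.0 expected counts in si-ctrl and 14.3 and 0 after si-PLANE.2 (-4.47 ± 1.54, adjusted p = 0.104), while the longer ENST00000259008 stood at 319 and 241 in si-ctrl and at 276 and 239 after si-PLANE.2 (-0.34 ± 0.237, adjusted p = 0.337).

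The 2 full-length BRCA2 transcripts could not be read separately. ENST00000544455 and ENST00000380152 are 10984 and 10930 bases long in the deposited tables. The former had 0 and the latter 721 expected counts in the first si-ctrl library, whereas in the second the former had 641 and the latter 0. After si-PLANE.2 the former again had 174 counts in replicate 3 and 0 in replicate 4, and the latter 0.26 and 143. In si-PLANE.1 replicate 1 the counts were 505 and 0.44, and in replicate 2 they were split into 199 and 167. The reads thus changed place between the libraries of si-ctrl and of si-PLANE.2, and neither transcript was called. The deposited lengths of some other isoforms differ from the annotation, and their annotated type then describes a longer or shorter model.

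**Figure D3:**
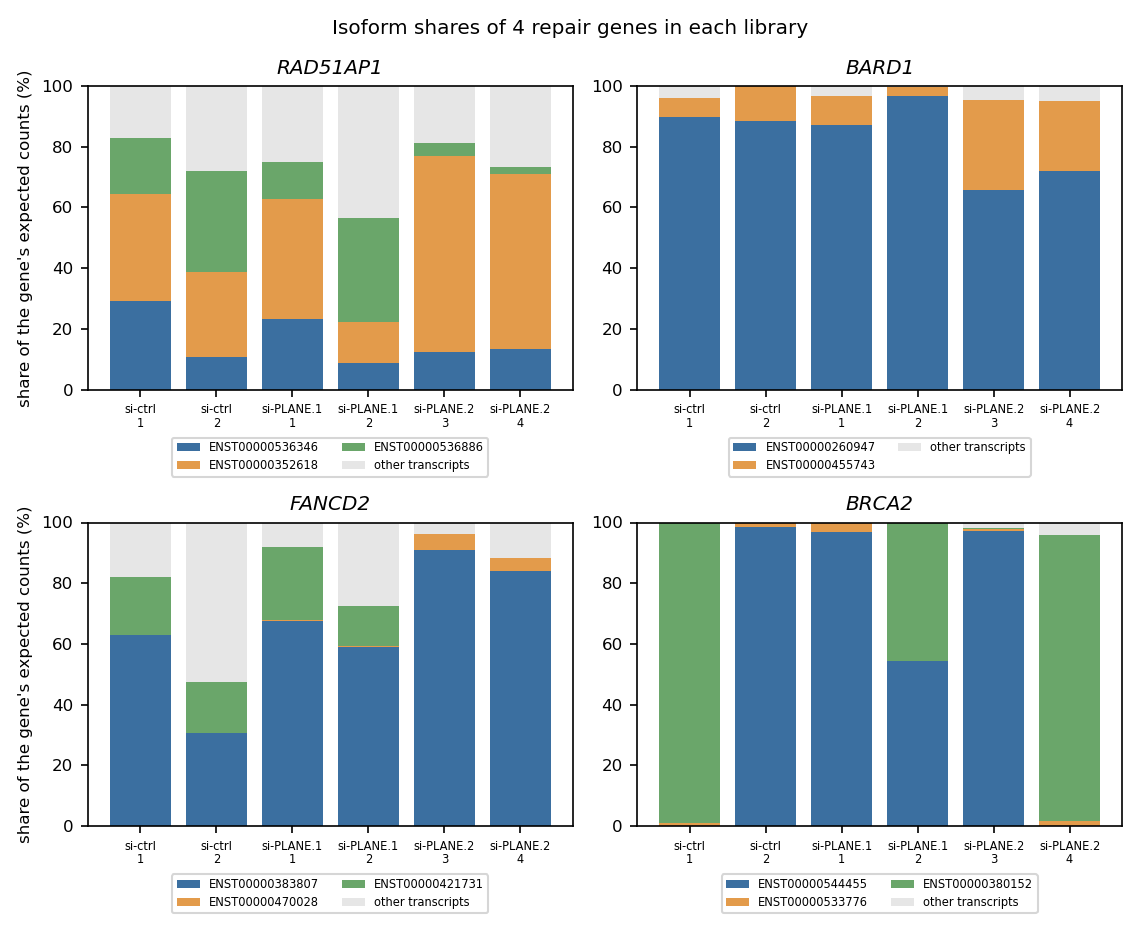
Share of the expected counts of RAD51AP1, BARD1, FANCD2 and BRCA2 (vertical axes, percent) taken by each main isoform in each library (horizontal axes, group and replicate number), with all other transcripts in light grey. After si-PLANE.2, ENST00000352618 took 64.7% and 57.6% of RAD51AP1 and the skipping ENST00000455743 29.5% and 23.0% of BARD1, ENST00000421731 of FANCD2 was absent, and the full-length BRCA2 transcripts changed place between the libraries of si-ctrl and of si-PLANE.2.

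The promoters of the 9 genes were searched for motifs of factors known to drive S-phase and mitotic genes. RefSeq promoters of GRCh38.p14, from 250 bases before to 50 after the start site, were held for 8 of the 9 genes. Both strands were read for the E2F motifs TTTCCCGC, TTTGGCGC, TTTCGCGC and TTTGCCGC, for CCAAT, and for the CHR motifs TTTGAA and TTCGAA, and no motif overlapped another within the 9 genes' matches. An E2F motif was present for EXO1 and FANCD2, 2 of 8 genes, and in 3.31% of all 35116 promoters. These matches are shown with the 30 bases before them and the match in capitals.
EXO1, chr1:241848178-241848215, plus strand: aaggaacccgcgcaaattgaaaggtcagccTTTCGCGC
FANCD2, chr3:10026405-10026442, plus strand: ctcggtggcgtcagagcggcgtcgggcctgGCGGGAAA
In EXO1 the match covers positions 5 to 12 after the start site. In FANCD2 it is TTTCCCGC read on the minus strand, from 2 bases before the start site to position 6. CCAAT was found for BRCA1, BLM, BRIP1 and RAD51AP1, 4 of 8 genes, and in 34.6% of all promoters. A CHR motif was found for BRIP1 alone, and in 16.4% of all promoters. EXO1 was the lowest of the 9 genes after si-PLANE.1 and FANCD2 stood near their median.

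The other genes of both pathways were read from a list of 37 further homologous recombination genes and 21 further Fanconi genes, all of them tested. After si-PLANE.1, 0 of the 58 were called by edgeR, DESeq2 or limma on FPKM, and 8 passed an unadjusted p under 0.05, all of them below 0, against 10.4% of all genes. Of the homologous recombination genes 29 of 37 were below 0, with a median of -0.15, and of the Fanconi genes 16 of 21, with a median of -0.13, while 49.7% of all genes were below 0. After si-PLANE.2, 13 homologous recombination genes were called higher and 13 lower of 37, and 9 Fanconi genes higher and 3 lower of 21, where 31.8% of all genes were called higher and 32.3% lower. The medians were -0.14 and 0.34, beside -0.03 for all genes tested.

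Among partners of the 9 genes, PALB2, which bridges BRCA1 and BRCA2, had 13.6 and 9.55 FPKM in si-ctrl, 9.61 and 8.66 after si-PLANE.1, and 4.64 and 3.8 after si-PLANE.2, and it fell by 1.25 ± 0.131 (SE, edgeR adjusted p = 0.00012). SHFM1, also called SEM1, encodes a small acidic partner of BRCA2 and had 26.4 and 34.4 FPKM in si-ctrl and 282 and 259 after si-PLANE.2 (2.72 ± 0.116 by counts, adjusted p = 4.9e-06). BRCA2 and PALB2 were thus lower and SHFM1 higher in the same libraries. SWI5, a recombination mediator, rose by 1.41, while RAD51B, a subunit of a recombination complex, fell by 1.21 and FAM175A, the Abraxas subunit of a BRCA1 complex, fell by 2.12. RAD51B was not called when read by its most abundant transcript alone (-0.18, edgeR adjusted p = 0.77).

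In the Fanconi list, STRA13, a binding partner of FANCM, rose by 1.59, UBE2T, the ubiquitin-conjugating enzyme for FANCD2 and FANCI, by 1.35, and C17orf70, a core complex subunit, by 1.07. ERCC4, a nuclease subunit that cuts at crosslinks, fell by 1.13, FANCB, a core complex subunit, fell by 0.73, and FANCM, the translocase that anchors the core complex, fell by 0.67. Read by the most abundant transcript alone, ERCC4 (-2.60, edgeR adjusted p = 0.308) and C17orf70 (2.41, adjusted p = 0.055) were not called. FANCA, the core complex subunit most often mutated in Fanconi anaemia, had 25.3 and 25.8 FPKM in si-ctrl, 16.6 and 15.1 after si-PLANE.1, and 25.2 and 21.9 after si-PLANE.2. Its value after si-PLANE.1 was -0.50 ± 0.146 and not called, and after si-PLANE.2 it was 0.38 ± 0.116 by counts (edgeR adjusted p = 0.021) but -0.11 by FPKM.

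**Figure D4:**
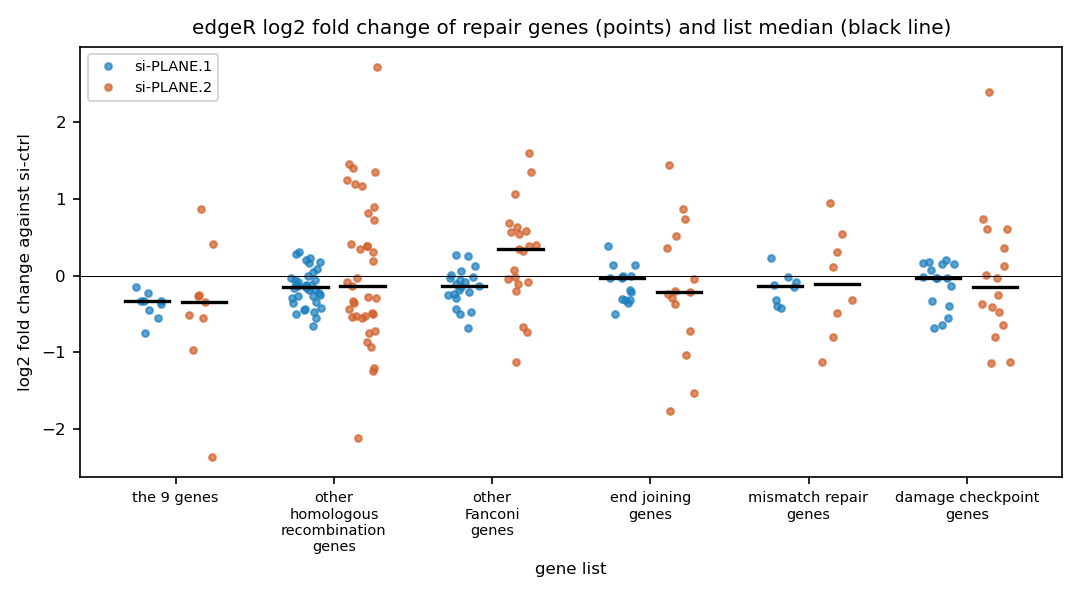
edgeR log2 fold change against si-ctrl (vertical axis) of the 9 genes and of the genes of 5 other repair lists (horizontal axis, 1 point a gene), with the list median as a black line. After si-PLANE.1 the 9 genes lie below 0 with a median of -0.33, and after si-PLANE.2 every list spreads to both sides of 0.

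Repair genes of other routes were also called in both directions after si-PLANE.2, where 64.1% of all genes were called. Of 15 end joining genes 4 were called higher and 5 lower, with C9orf142 at 1.44 and APTX at 0.74 among them, and with RIF1 at -1.76, APLF at -1.53 and DCLRE1C at -1.03. Of 8 mismatch repair genes 3 were called higher and 4 lower, with PCNA at 0.95, and with MLH3 at -1.13, MSH3 at -0.80 and PMS1 at -0.48. Of 16 damage checkpoint genes 3 were called higher and 6 lower, with ATRIP at 0.73, RNF8 at 0.60 and RAD1 at 0.60, and with the kinases ATM at -1.14 and ATR at -0.80 and the ATR activator ETAA1 at -1.13. The directions of APTX, ATRIP and RNF8 turned with TPM values. APLF was not called when read by its most abundant transcript alone (-0.98, edgeR adjusted p = 0.29). After si-PLANE.1, edgeR called 0 genes of these 3 lists, and 2, 2 and 4 passed an unadjusted p under 0.05.

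The genes whose log2(FPKM + 1) ran most closely with the mean of the 9 genes over the 6 libraries were SAYSD1, E2F7, SRSF4, SMIM13 and RTF1, with Pearson's r from 0.978 to 0.986 among 14431 genes compared. E2F7, an atypical E2F factor that represses transcription, had 7.96 and 5.00 FPKM in si-ctrl, 4.73 and 3.22 after si-PLANE.1, and 3.40 and 3.15 after si-PLANE.2. With 6 libraries and as many genes compared, these r values are a ranking only.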

How the data were processed

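RNA from A549 cells was sequenced in 6 libraries, 2 each for si-ctrl, si-PLANE.1 and si-PLANE.2, grouped by the sample labels. The submitters' processing notes name Trimmomatic 0.30, HISAT2 2.0.1, HTSeq 0.6.1, DESeq and hg19, and the tool behind the estimated counts is not given in the sources used here. For every transcript the authors deposited raw expected counts of the 6 libraries, next to FPKM values that they had scaled by length and depth. FPKM values deposited by the authors were used as given.

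Transcripts were summed per gene. The 16723 of 180253 transcripts without a gene identifier, with 3.03% to 3.62% of the counts of a library, were left out of the gene sums. Rounded sums went into edgeR 4.0.16 in R 4.3.3 (quasi-likelihood F test with TMM scaling), for features whose mean FPKM reached 0.5, for each siRNA against si-ctrl and between the siRNAs in a fit of all libraries. Standard errors were the absolute log2 fold change divided by the square root of F. DESeq2 1.42.0, limma 3.58.1, other scalings, filters and left-out libraries were tried as alternatives. Scripts were tested on simulated data. The genes, lists and tests were chosen with earlier results of these data known. All 9 genes were named, with up to 3 genes called higher and 3 lower per other repair list after si-PLANE.2, and PALB2 and FANCA in any case, except that some genes the rule picks are not reported here. Names and isoforms came from GENCODE v44 on GRCh37, which was matched by 151453 transcripts, and list symbols were also matched by RefSeq synonyms. Libraries of 10572151 to 20778431 counts leave isoforms with few counts imprecise.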

Additional observations from a re-analysis of the deposited data

Results flagged for a closer look

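The effects of the siRNAs differed from each other for 6 of the 9 genes, by edgeR's test of one siRNA against the other. The log2 difference, si-PLANE.2 minus si-PLANE.1, was -1.99 for BRCA2, -0.64 for BRIP1, -0.29 for BRCA1, 0.49 for EXO1, 0.75 for FANCI and 1.32 for RAD51AP1. By counts the siRNAs also gave values of opposite sign against si-ctrl for RAD51AP1 and FANCI, whereas with TPM both RAD51AP1 values were below 0 (-0.30 and -0.14, neither called). Of all genes, 64.4% differed by the same test, and the histone transcripts without a poly(A) tail were near 0 in the si-PLANE.2 libraries alone, so the siRNA and the set of libraries cannot be told apart. Groups of 2 libraries were too small for a check of single libraries that stand apart.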

How the results depend on the processing

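Of the 9 genes, 0 were called after si-PLANE.1, but 4 passed an unadjusted p under 0.05 and 2 were called with the replicate block (EXO1 and BLM). Of the 58 other homologous recombination and Fanconi genes, 0 became 8 and 6 under these settings. Over all 14535 genes tested, the 5 calls became 1517 and 1225. Same-numbered si-ctrl and si-PLANE.1 libraries deviated together with r = 0.27 over 14440 genes, from 2 pairs, and no source says that the numbers pair them. No paired analysis was possible for si-PLANE.2 because its numbers, 3 and 4, are not shared with si-ctrl. After si-PLANE.2 the 9 genes gave 6 calls, and 3 when each gene was read by its most abundant transcript. These 3 were FANCI (0.57, edgeR adjusted p = 0.011), BLM (-0.70, adjusted p = 0.0295) and BARD1 (-0.71, adjusted p = 0.0305). BARD1 was not among the 6. The calls between the siRNAs went from 6 to 3 with limma on log2(FPKM + 1) or log2(TPM + 1) and ranged from 3 to 6 over left-out libraries. For the 58 other pathway genes the count was 38, and 25 to 45 over left-out libraries. Isoform calls after si-PLANE.2 went from 5 to 10 at an unadjusted p under 0.05, 9 with limma on FPKM or TPM, 8 with the smaller pseudocount, 3 with all libraries in one fit, and 0 to 6 over left-out libraries, where the 0 came from fits without a si-PLANE.2 library that called 0 of all transcripts. Isoform calls after si-PLANE.1 went from 0 to 3 at an unadjusted p under 0.05. Left-out libraries gave 0 calls after si-PLANE.1 for genes, other pathway genes and isoforms alike. The cause was not tested.

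Reversed values after si-PLANE.1 were those of BRCA2 and FANCD2 with the most abundant transcript (0.41 and 0.11) and of BRIP1 with TPM (0.02). The reads of that BRCA2 transcript changed place with those of another between libraries, so its value cannot be read for the gene. Over left-out libraries BRIP1 ranged from -0.60 to 0.02. After si-PLANE.2 the reversed values were BARD1 (0.04) and FANCD2 (0.15) with FPKM at both pseudocounts, FANCD2 with the most abundant transcript (0.62), and RAD51AP1 with TPM (-0.14). Between the siRNAs, BARD1 gave 0.14 and 0.17 with FPKM at pseudocounts of 1 and 0.1. BLM, at -0.00, gave 0.01 with DESeq2, its size factors, or the knockdown libraries only, 0.02 with no minimum FPKM, -0.16 to 0.15 over left-out libraries, and -0.73 with TPM, which was called (limma adjusted p = 0.029). Of the other genes named, with FPKM at both pseudocounts, TPM and the most abundant transcript in this order, FANCA gave -0.11, -0.12, -0.27 and -0.29, and ATRIP -0.35, -0.41, -0.49 and -7.63. APTX gave -0.11 with TPM and -6.76 with the most abundant transcript, PMS1 0.09 with the latter, and RNF8 -0.08 with TPM. These settings for the differences and the other genes were added after the data had been seen.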
